A study of Homo sapiens with 6 samples.

Results

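SNAI1 and SNAI2 are the genes for the zinc finger repressors Snail and Slug. They are 2 of 8987 genes named on the arrays, each with 1 probe, of 14080, whose only gene symbol in the platform annotation was that gene. The pair was chosen by its log2 ratios on all 6 arrays, and above all by the increase of the ratio between 0 min and 8 h. Those ratios are therefore given as a description, with no test.

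Both proteins bind E-boxes, short DNA motifs, through their zinc fingers, and recruit corepressors through a short domain at their amino end. They switch off genes of epithelial junctions, and they are best known for epithelial-mesenchymal transition (EMT), the change of epithelial cells into migrating mesenchymal cells. Snail protein is short-lived, since the kinase GSK3B and the ubiquitin ligase adaptor BTRC mark it for the proteasome. TGF-beta, Notch and other signals induce both genes.

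The RNA came from GM00156, a human cell line of the Coriell repository whose cell type the labels do not give. Cells were kept for 10 h with emetine at 100 µg/ml, which halts ribosomes on mRNA, or without it. Both cultures, with and without emetine, then received 5 µg/ml actinomycin D, a blocker of RNA synthesis. On each of 5 two-colour arrays, treated RNA met untreated RNA of the same harvest, at 0, 10 or 30 min or at 1 or 8 h. The other array was a self-self hybridisation of treated RNA at 0 min, for which the labels mention no actinomycin D. Every group is thus 1 array with no replicate, and the number of arrays limits the precision. The labels do not say which channel is the numerator, so values are called positive or negative only. If the ratio runs the other way, every sign below turns and every size stays. A ratio also does not say which of its 2 channels changed, and fewer cells or less RNA per cell cannot be told apart.

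The 5 harvest arrays had medians from 0.05 to 0.15 and robust SDs from 0.44 to 0.92, against 0.01 and 0.12 on the self-self array. The 1 h array lacked large positive values, with a highest one of 2.10 among 13091 probes measured on all 6 arrays, where the other harvests reached from 5.94 to 7.14. The description of the 0 min array names treated RNA on both sides, while the names of its channels are treated and untreated RNA. For this reason the differences from 0 min of the Snail genes, and those of listed genes on which a statement rests, are also given from 10 min.

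The log2 ratio of SNAI1 was -2.22 at 0 min, then -1.70 (10 min), -0.42 (30 min), 0.35 (1 h) and 1.13 (8 h), and it was -0.20 on the self-self array. Each harvest was thus higher than the one before, and the sign changed between 30 min and 1 h. As a linear ratio SNAI1 went from 0.214 to 2.19, a 10.2-fold difference. SNAI2 stood at -0.64, -0.47, 0.91, 1.02 and 4.61 in the same order, and at -0.05 on the self-self array. It too was higher at each later harvest, with the sign changing between 10 and 30 min. Its linear ratio went from 0.643 to 24.5, a 38.0-fold difference. An increase at each of the 4 steps was seen for 141 of 13151 probes (1.07%) measured on all 5 harvests, and a decrease at each step for 158 (1.2%).

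**Figure D1:**
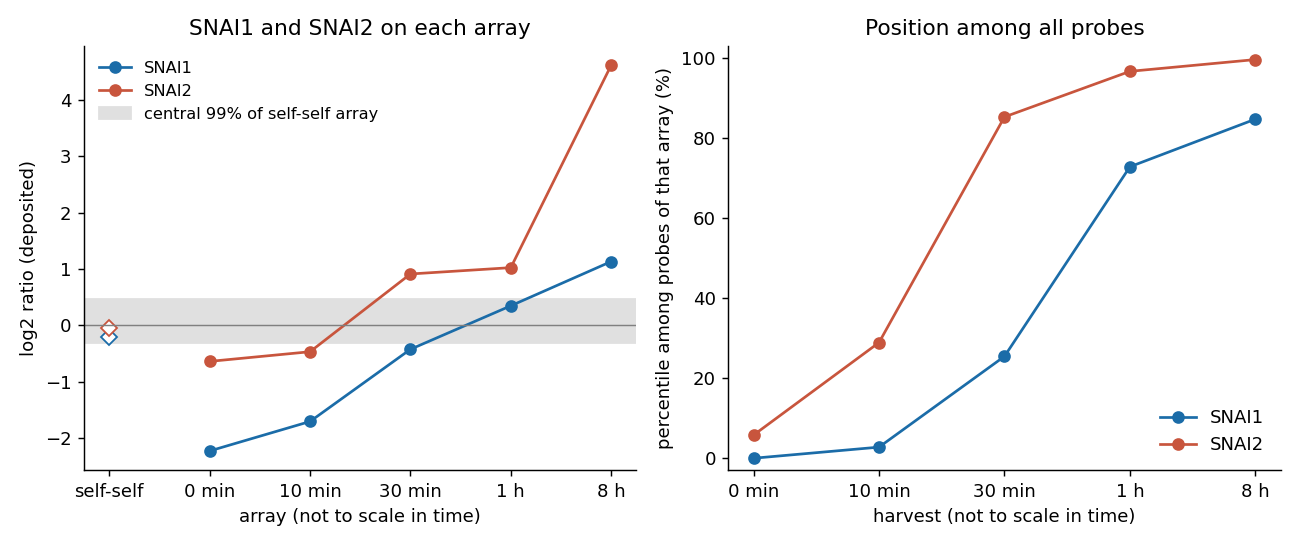
Left, deposited log2 ratios of SNAI1 and SNAI2 on each array, with open diamonds for the self-self array and grey for its central 99% from -0.32 to 0.47. Right, the percentile of each gene among 13091 probes of the same array; both genes stand higher at each later harvest, SNAI2 reaching 99.6% and SNAI1 84.7% at 8 h.

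The noise of labelling and hybridisation was read from the self-self array, 99% of whose values lay between -0.32 and 0.47. SNAI1 lay below this range at 0, 10 and 30 min, inside it at 1 h and above it at 8 h. SNAI2 lay below it at 0 and 10 min and above it from 30 min on. Of all probes, 20.8% were below the range at 0 min, 34.1% at 10 min and 29.9% at 30 min, while 33.3% (30 min), 19.2% (1 h) and 33.5% (8 h) were above it. Lying outside was thus common on every array. Passing from below the range at 0 min to above it at 8 h, as both Snail genes did, was seen for 189 of 13091 probes (1.44%), and the opposite passage for 102 (0.779%). From 10 min, where both genes were also below the range, the counts were 317 (2.42%) and 105 (0.802%). Centring and scaling to equal spread was applied to the self-self array too, which gave it the spread of the harvests. The range itself thereby widened to between -2.10 and 3.03. SNAI1 at 8 h (0.89) and SNAI2 at 0 min (-1.22) were then inside it, and neither gene, nor any of the 13091 probes, made the passage. Because few probes can lie outside a range stretched in this way, nothing about noise is read from that setting.

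The rank of a probe within its own array does not depend on the array's zero or spread. At 0 min SNAI1 had the lowest value of all 13091 probes. PODXL, the gene of a sialomucin of the cell surface, was the lowest other named gene at -2.0 (chosen after its value was seen). SNAI1 then moved to a percentile of 2.77% (10 min), 25.5% (30 min), 72.8% (1 h) and 84.7% (8 h). SNAI2 was at 5.78%, 28.9%, 85.3%, 96.7% and 99.6% in the same order, and 52 probes were above it at 8 h. By rank as by ratio, both genes were therefore higher at each later harvest, and this included the 1 h array.

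The difference between 8 h and 0 min was 3.36 for SNAI1 and 5.25 for SNAI2, on a log2 scale. Over all 13151 probes its median was 0.04. An increase of 1 or more was found for 1371 probes (10.4%) and a decrease of 1 or more for 666 (5.06%). From 10 min the counts were 1334 and 434. With arrays centred on their medians they were 1178 and 849, and with equal spread as well 883 and 972. SNAI2 had the largest increase of all probes and SNAI1 the 18th largest. Of the 18 probes at the top, 13 were already above 0 at 0 min and 5 were below the self-self range, SNAI1 and SNAI2 among these. ID3, an inhibitor of helix-loop-helix factors, came next to SNAI2 with 5.17, going from 0.48 to 5.65. DKK1, a secreted Wnt antagonist, started below the range as the Snail genes did, at -0.97, and reached 2.95. ID3 and DKK1 were chosen after their values were seen. From 10 min instead of 0 min, the difference to 8 h was 2.83 for SNAI1 and 5.08 for SNAI2, the 45th and the largest of all probes. With arrays scaled to equal spread SNAI1 was second and SNAI2 first.

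**Figure D2:**
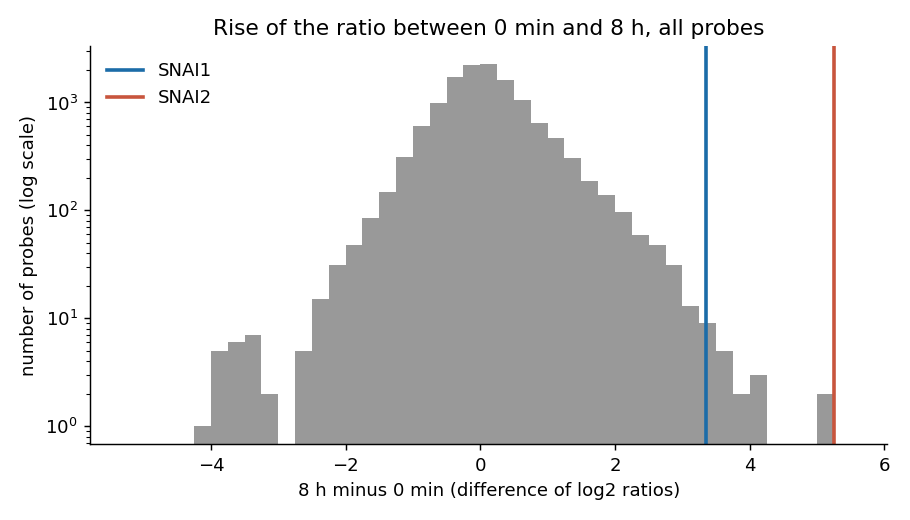
Number of probes (log scale) by the difference of log2 ratios between 8 h and 0 min, for 13151 probes in bins of equal width. Vertical lines mark SNAI1 at 3.36 and SNAI2 at 5.25, the latter at the upper end of all probes.

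The steps of the 2 genes differed in size. For SNAI1 they were 0.52 from 0 to 10 min, 1.28 to 30 min, 0.77 to 1 h and 0.78 to 8 h. By 1 h SNAI1 had made 76.6% of its whole difference, and its gain of 2.57 from 0 min to 1 h was the largest of 13151 probes. From 10 min to 1 h its gain was 2.05, the 8th largest. For SNAI2 the steps were 0.17, 1.38, 0.11 and 3.59 in the same order. The last step, from 1 h to 8 h, made up 68.3% of the whole for SNAI2 and 23.4% for SNAI1. Where they were alike was between 10 and 30 min, a step that was 113th largest for SNAI1 and 87th for SNAI2. The sizes of steps also depend on the spread of each array. With arrays centred and scaled to equal spread, SNAI1 stood at -4.04, -1.53, -0.57, 0.44 and 0.89. Its largest step was then the first, from 0 to 10 min. SNAI2 stood at -1.22, -0.47, 0.77, 1.45 and 4.05, and its last step was still its largest. The step to 1 h and the step from it both rest on the 1 h array with its narrower upper range, and the part of that array in the sizes of these steps was not tested.

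**Figure D3:**
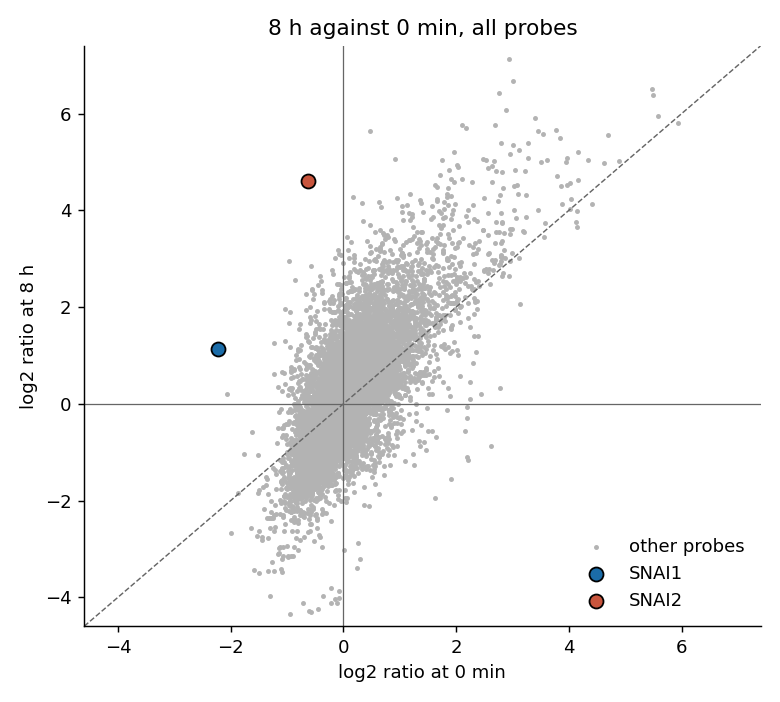
Log2 ratio at 8 h against log2 ratio at 0 min for 13151 probes, with the line of equal values dashed. SNAI1 at -2.22 and 1.13 and SNAI2 at -0.64 and 4.61 lie at the upper left edge of the cloud, both negative at 0 min and positive at 8 h.

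SNAI2 was above SNAI1 on every array. The difference in log2 ratio, SNAI2 minus SNAI1, was 1.59, 1.24, 1.33, 0.68 and 3.48 from the first harvest to the last, against 0.15 on the self-self array. A difference of ratios within an array does not depend on that array's zero, but it does depend on its spread. As deposited it was smallest at 1 h and largest at 8 h, where the ratio of SNAI2 was 11.2 times that of SNAI1. With equal spread SNAI1 and SNAI2 stood at -4.04 and -1.22 at 0 min, and at 0.89 and 4.05 at 8 h. The gap at 0 min was then nearly as wide as that at 8 h. At 10 min they stood at -1.53 and -0.47 and at 1 h at 0.44 and 1.45, gaps of similar size. Averaged over the 5 harvests as deposited, SNAI1 was at -0.57 and SNAI2 at 1.09. These means hide values of both signs and rest on the end points. Without the 0 min array SNAI1 averaged -0.16, without 10 min -0.29 and without 8 h -1.0. SNAI2 averaged 0.21 without 8 h.

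For each Snail gene the 6 genes nearest in profile were found as those with the smallest root mean square difference over the 5 harvest log2 ratios, among 10884 single-gene probes of 8725 genes. Nearness here rests on 5 points from arrays shared by all genes. For SNAI1 the nearest was DLX2, a homeobox transcription factor, with a root mean square difference of 0.70. It went from -1.06, -0.94 and -0.74 at 0, 10 and 30 min to -0.05 at 1 h and 0.64 at 8 h. The others were TRIM27, a RING finger protein, MN1, a transcriptional coregulator, GEMIN4 and GEMIN7, parts of the SMN complex that assembles spliceosomal particles, and IFFO2, of the intermediate filament family, all between 0.73 and 0.76. None of the 6 was as low as SNAI1 at 0 min, their values running from -1.23 to -0.76, and their differences between 8 h and 0 min ran from 1.70 to 2.13. DLX2 alone among the 6 was higher at each later harvest, as SNAI1 was. The other probe of TRIM27 changed by 0.20 only and that of GEMIN4 by 1.06, so these probes disagree in size.

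For SNAI2 the nearest was MSC (musculin), a helix-loop-helix repressor, at a root mean square difference of 0.76. It stood at -0.09, 0.13, 1.04, 0.69 and 3.17 over the 5 harvests. Next were TRMT10C, a methyltransferase of mitochondrial tRNA, FUBP1, a DNA-binding regulator of MYC, FRMD6, a FERM domain protein, FOXD1, a forkhead transcription factor, and NOL11, a nucleolar factor of ribosome biogenesis, between 0.78 and 0.84. At 8 h the 6 genes lay between 3.02 and 3.45, all under SNAI2, and at 0 min between -0.15 and 0.14. Unlike SNAI2, none of the 6 was higher at each later harvest. The other probes of FUBP1 changed by -0.14 and 0.80 between 0 min and 8 h, against 3.21 for the near one. SNAI1 and SNAI2 themselves were 1.92 apart and neither was among the 6 nearest of the other.

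**Figure D4:**
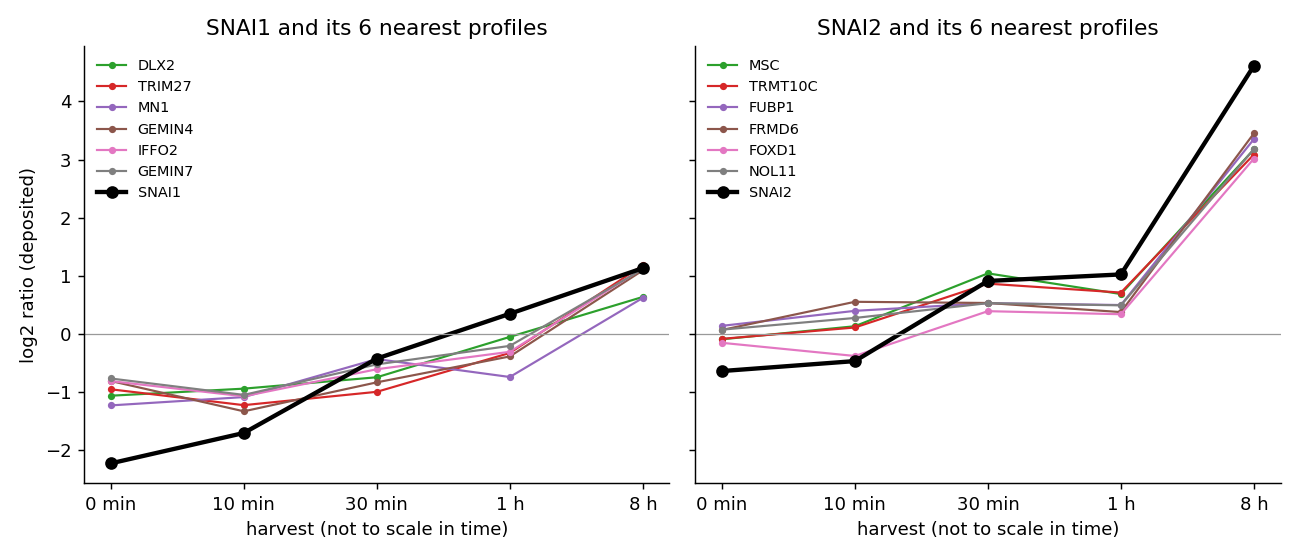
Deposited log2 ratios over the 5 harvests of SNAI1 (left) and SNAI2 (right) in black and of the 6 genes nearest to each in colour, 1 probe per gene. The neighbours of SNAI1 begin between -1.23 and -0.76, above its -2.22, and those of SNAI2 end between 3.02 and 3.45, below its 4.61.

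Genes that act before, with or after the Snail proteins were followed through 9 lists with 169 genes, of which 133 were measured on all 5 harvests. Their mean log2 ratio over the harvests was tested with limma on 8748 genes, several probes of a gene being averaged. At an adjusted p of 0.05, 3240 of all genes (37%) were called positive and 2217 (25.3%) negative, and the median of all genes was 0.14. Of the listed genes 56 were called positive and 35 negative, and with arrays centred on their medians 43 and 45. Centring moved the calls of all 13151 probes the same way, from 4602 positive and 3454 negative to 3749 and 4029. For change over time, limma's slope on log2(1 + min / 10) passed for 1 of 8748 genes (0.0114%), while 1308 had an unadjusted p under 0.05. That gene was SNAI2, whose ratios chose it, so nothing is read from it. None of the 133 listed genes passed for the slope. Without the 1 h array 584 of 13151 probes passed for the slope, against 0 with it. P-values here measure the spread of 5 single arrays around a line, which may be technical.

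**Figure D5:**
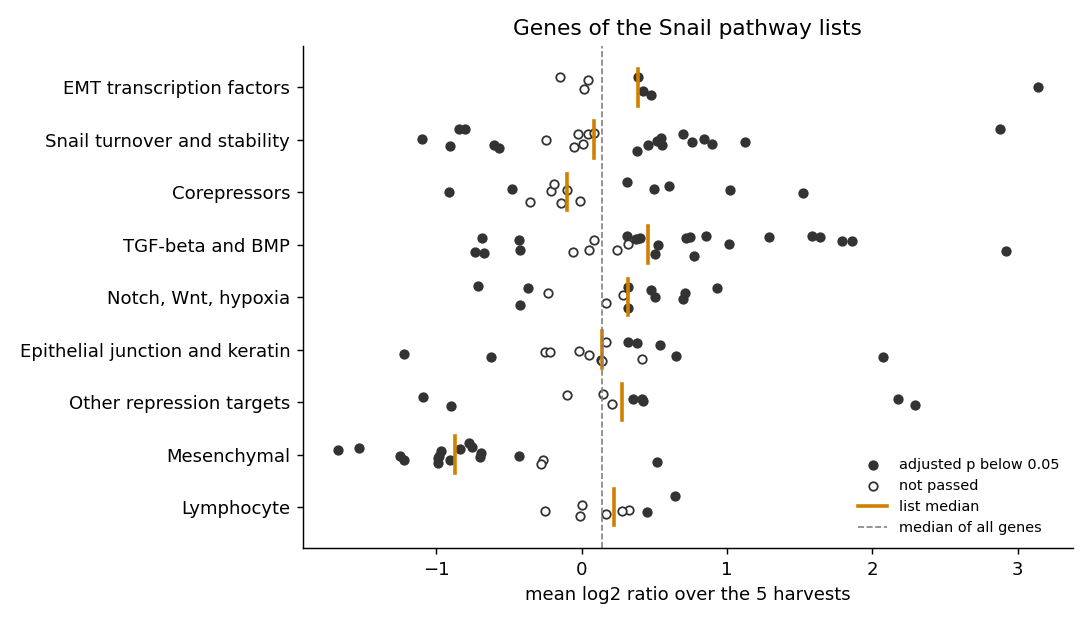
Mean log2 ratio over the 5 harvests for each measured gene of the 9 lists, filled where limma's adjusted p was below 0.05 and open otherwise, with list medians in orange and the median of all genes, 0.14, dashed. The mesenchymal genes lie mostly on the negative side, with a median of -0.87, and ZEB2, LATS2 and SKIL lie farthest on the positive side.

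Other transcription factors of EMT were measured for 7 of 17 genes, and SNAI3, the remaining Snail gene, was not analysed here. On the positive side 4 passed (37% of all genes did), 3 did not pass, and the median was 0.39. ZEB2, an E-box repressor that acts beside Snail, had 2.99, 4.17, 3.82, 1.58 and 3.12 over the harvests, a mean of 3.14 (SE 0.32, limma adjusted p = 0.000462). It was positive at every harvest and its 8 h value exceeded its 0 min value by 0.14 only (from 10 min the difference was -1.05), where SNAI1 and SNAI2 began negative. TWIST1, a helix-loop-helix factor, averaged 0.39 (SE 0.12, limma adjusted p = 0.0196) over 2 probes at 0.15 and 0.63. It did not pass once arrays were centred, without 30 min, or without 8 h, where its mean was 0.19 (limma adjusted p = 0.266). TCF4 and OVOL1 averaged 0.47 and 0.42. TCF4 did not pass with the self-self value subtracted, and OVOL1 did not pass without 10 min or without 30 min. SOX9 did not pass (mean 0.01), but its values went from -0.63 through -0.05, -0.01 and 0.19 to 0.57. SOX9, the corepressor subunit EED and the ubiquitin ligase SMURF1 were the 3 of 133 listed genes whose value was higher at each later harvest, named after their values were seen. Among all 13151 probes 141 (1.07%) did so, and no trait of the lists is read from these 3. EED went from -0.23 to 1.11 and SMURF1 from -0.24 to 0.84.

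TGF-beta and BMP signalling, which induces Snail genes, had a median of 0.45 over 26 measured genes. Of these 16 were called positive and 5 negative (37% and 25.3% of all genes). The 4 members farthest from 0 were all positive. SKIL, a corepressor of SMAD proteins, averaged 2.92 (SE 0.31), with 2.81 at 0 min and 2.63 at 8 h. TGIF1, also a SMAD corepressor, averaged 1.86 (SE 0.18), and the inhibitory SMAD7 1.79 (SE 0.26, limma adjusted p = 0.000852), from 0.63 at 0 min to 2.41 at 8 h. The ligand TGFB2 averaged 1.64 (SE 0.24) and went from 1.46 to 0.70. SMAD4, the common partner of signalling SMADs, was named after its values were seen. It stood at 0.07, 0.12, 0.34, 0.20 and 1.89, and passed for its mean of 0.52 (limma adjusted p = 0.0140), but without 8 h the mean was 0.18 and did not pass. Of the Notch, Wnt and hypoxia genes 7 of 13 were called positive and 3 negative (37% and 25.3% of all genes), with a median of 0.32. The Notch targets HES1 and HEY1 averaged 0.93 and 0.69, the Wnt target AXIN2 0.71 and the receptor NOTCH1 -0.72.

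Genes that set the stability of the Snail proteins lay on both sides, 11 positive and 6 negative of 23 (37% and 25.3% of all genes). Their median of 0.09 turned to -0.01 with arrays centred and -0.03 with equal spread. LATS2, a Hippo pathway kinase, averaged 2.88 (SE 0.31, limma adjusted p = 0.000462), with 2.67 at 0 min and 2.92 at 8 h. MDM2, the ubiquitin ligase of p53, averaged 1.12 over 2 probes. LOXL2, a lysyl oxidase, averaged -1.10 and STUB1, a ubiquitin ligase bound to chaperones, -0.91. Without limma's moderated variances LOXL2 did not pass. GSK3B and BTRC were picked for their role after their values were seen. GSK3B averaged 0.76 (SE 0.12) over 9 probes that ran from 0.69 to 0.89, and BTRC 0.38 (SE 0.12) over 4 probes from 0.21 to 0.64. Both passed (limma adjusted p = 0.00118 and 0.0217), but BTRC did not once arrays were centred (limma adjusted p = 0.0564), nor without 30 min or without 8 h. Corepressors that Snail recruits were mixed, with 5 positive (37% of all genes), 2 negative (25.3%) and 6 not passing of 13. With arrays centred 4 were positive and 5 negative. AJUBA, an adaptor protein, averaged 1.52 (SE 0.20), EZH2, a histone methyltransferase, 1.02 (SE 0.14) and the deacetylase HDAC1 -0.91 (SE 0.15). RCOR1, a scaffold of the demethylase complex, stood at 0.05 at 0 min and 2.18 at 8 h, a difference of 2.13. Its mean of 0.60 passed (limma adjusted p = 0.0100), but without 8 h it was 0.21 and did not pass.

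Snail and Slug bind the E-box CACCTG, which read on the other strand is CAGGTG. These letters were searched in the 250 bases before gene starts, taken from RefSeq on GRCh38.p14. Neither SNAI1 nor SNAI2 was matched to a window there, so the bases before their own starts were not searched. Of all 35116 windows 17.5% held the motif, and of genes measured here that have a window 21.0%. Of the 15 measured genes for epithelial junctions and keratins 8 had a window, and 4 of these held the motif, namely CLDN7, JUP, MUC1 and TJP3. CDH1, EPCAM, ESRP1, KRT18, KRT19, KRT7 and PKP2 had no window and were not searched. Of the other reported targets with a window 2 of 7 held it (28.6%), and of the mesenchymal genes 2 of 10 (20.0%). A match is a description of letters and not a site. CLDN7, a claudin of tight junctions, is shown because it held 4 matches, beginning 174, 135, 20 and 9 bases before the start. TJP3, a scaffold of tight junctions, is shown because it had the largest mean of this list and held 1 match, 7 bases before the start. CLDN7 is at chr17:7262479-7262728 on the minus strand and TJP3 at chr19:3721487-3721736 on the plus strand. Both are written from 5′ to 3′ with the motif in capitals.
CLDN7: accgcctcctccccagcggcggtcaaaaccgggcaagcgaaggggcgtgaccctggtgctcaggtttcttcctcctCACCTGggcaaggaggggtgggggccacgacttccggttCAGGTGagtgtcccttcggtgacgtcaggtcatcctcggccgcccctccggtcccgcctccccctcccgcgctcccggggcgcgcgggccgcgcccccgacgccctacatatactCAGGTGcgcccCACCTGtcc
TJP3: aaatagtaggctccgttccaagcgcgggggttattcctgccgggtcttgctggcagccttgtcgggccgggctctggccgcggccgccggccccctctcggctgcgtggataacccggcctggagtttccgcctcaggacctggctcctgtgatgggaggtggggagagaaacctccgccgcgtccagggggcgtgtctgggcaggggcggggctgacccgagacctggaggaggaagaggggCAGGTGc

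TJP3 stood at 1.68, 2.10, 2.16, 1.08 and 3.33 over the harvests, a mean of 2.07 (SE 0.22, limma adjusted p = 0.000462). CLDN7 averaged 0.32 (SE 0.11, limma adjusted p = 0.0368), between 0.16 and 0.54 at every harvest. With arrays centred its mean was 0.22 and did not pass (limma adjusted p = 0.113), nor did it pass with the self-self value subtracted or without any 1 of the 10 min, 30 min, 1 h and 8 h arrays. The deposited values of CLDN7 stayed within less than 1 log2 unit of 0. The share of all genes that did so was not computed, and a link to the course of SNAI1 and SNAI2 was not tested. CDH1, which encodes E-cadherin and is the best-known Snail target, had 0.21, 0.57, 0.45, 0.15 and 0.53, a mean of 0.38 (SE 0.12, limma adjusted p = 0.0217). It did not pass with arrays centred (limma adjusted p = 0.0567), nor without 10 min, 30 min or 8 h. CDH1 was picked for its role after its values were seen. The whole list had a median of 0.14, close to that of all genes. Of its 15 genes 5 were called positive (37% of all genes), 2 negative (25.3%) and 8 did not pass. With arrays centred 3 were positive and 4 negative. KRT18, a keratin, averaged -1.22 (SE 0.28) and stood at -0.92 at 0 min, -2.64 at 10 min and 0.54 at 8 h. KRT7 averaged -0.62 and CLDN1 0.65. Without limma's moderated variances KRT18, KRT7, CLDN1, CLDN7 and CDH1 did not pass. Other genes reported as repressed by Snail or Slug gave 5 positive and 2 negative of 10 (37% and 25.3% of all genes). Their median was 0.28. BBC3, the cell death gene PUMA, averaged 2.29 (SE 0.31) and VDR, the vitamin D receptor, 2.18 (SE 0.33). The mean of VDR did not pass without moderated variances. VDR had the largest difference between 8 h and 0 min of all listed genes, 2.50, going from 1.84 to 4.34. From 10 min the difference was 2.54 for VDR, below the 3.18 of KRT18. PEBP1, an inhibitor of RAF kinase, averaged -1.09 and ITGA3, an integrin chain, -0.90. As the ratio sets treated against untreated cells, these values do not show how the targets answer to Snail.

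Mesenchymal genes, which are active in cells that have passed EMT and in fibroblasts, lay on the negative side. Of 18 measured genes 15 passed there (25.3% of all genes did), 1 passed on the positive side and 2 did not pass, and the median was -0.87. With arrays centred 17 were negative, while negative calls among all 13151 probes rose from 3454 to 4029. COL1A1, a chain of type I collagen, stood at 0.01, -1.57, -1.62, -2.19 and -3.02, a mean of -1.68 (SE 0.17, limma adjusted p = 0.000462). Its difference between 8 h and 0 min was -3.03, and from 10 min -1.45, against 3.36 and 2.83 for SNAI1. The matrix protein SPARC averaged -1.53 (SE 0.18), the collagen chain COL5A2 -1.25 (SE 0.16) and the membrane protease MMP14 -1.22 (SE 0.16). A decrease of 1 or more between 0 min and 8 h was found for 7 of the 18 (4.24% of all genes), and an increase of 1 or more for none (10.9% of all genes). From 10 min a decrease of 1 or more was left for COL1A1 only, 1 of the 18 (2.89% of all genes), and the median difference was -0.14 in place of -0.93. The positive member was FN1, fibronectin, at 0.51, although it stood at 0.49 on the self-self array, and with that value subtracted no member passed on the positive side. Of 8 lymphocyte markers 2 passed on the positive side (37% of all genes did), CD52 at 0.64 and CD79B at 0.45. The other 6 did not pass, and the list median was 0.22. PTPRC and CD3D averaged 0.33 and 0.28. CD79B did not pass after centring, with the self-self value subtracted, or without 10 or 30 min, and the 2 probes of CD52 averaged 0.27 and 1.01. Ratios do not give the level of these markers, so the cell type was not checked.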

How the data were processed

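The table holds log2 ratios that the authors deposited for 14080 probes and 6 arrays. Per the labels, spots were background-subtracted, divided by a reference, normalised within each slide on housekeeping genes, and discarded under a quality of 0.5. Base 2 follows from the numbers themselves (2 to that power was a multiple of 1 in 10000, within 0.05, for 99.5% of the values or more, array by array). The direction is not given in the sources used here. Each array repeats 1 value at 333 to 534 probes, treated as not measured after seeing the data. That left 13151 probes for the 5 harvests and 13091 for all arrays. Symbols came from the platform annotation, updated by gene ID (11304 probes with 1 symbol, 446 with several, 2330 with none).

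In R 4.3.3, limma 3.58.1 estimated, for each probe or gene, the mean and the change with log2(1 + min / 10) over the harvests (3 residual degrees of freedom, moderated variances, two-sided). P-values were adjusted after Benjamini and Hochberg, with 0.05 as the threshold. The fit was also run on simulated data. Their errors were independent, with no differences in spread between arrays, so nothing about such differences is read from that run. Members, lists and rules were chosen with earlier results of these data known. Named are the members, their 6 nearest genes and up to 4 genes per list with the largest mean in size, beside those said to be picked later.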

Additional observations from a re-analysis of the deposited data

How the results depend on the processing

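Each array centred on its median, and also scaled to 1 spread, was tried, as were leaving out each harvest, subtracting the self-self value, no moderation, another time axis and another rule for several probes. Keeping the repeated value, and 10 min in place of 0 min, were added after seeing the data. Each harvest ratio already pairs treated with untreated RNA of the same harvest. No further pairing was possible because each group has 1 array and the labels give no replicate numbers. SNAI1 and SNAI2 kept the sign of their mean and of their 8 h minus 0 min difference in each setting where these were computed. That difference chose the genes, and most settings could not change it, so nothing is read from its kept sign. It stayed at 3.36 and 5.25 with the self-self value subtracted, without moderation, with another probe rule and without a middle harvest. Only centring, equal spread and 10 min in place of 0 min moved it. With equal spread the means were -0.96 for SNAI1 and 0.91 for SNAI2, their difference (SNAI1 minus SNAI2) -1.87 and the SNAI1 change from 0 min to 8 h 4.93. With 10 min in place of 0 min the changes to 8 h were 2.83 for SNAI1 and 5.08 for SNAI2. With the self-self value subtracted the SNAI1 mean was -0.38 and the difference -1.52. Leaving out 1 harvest, SNAI1 averaged from -1.0 to -0.16, SNAI2 from 0.21 to 1.52 and the difference from -1.91 to -1.21. With equal spread 331, 134, 228, 211 and 274 probes lay outside the self-self range at 0, 10 and 30 min, 1 h and 8 h, against 5155, 8810, 8264, 5970 and 8297. That setting stretches the self-self array as well, so its range widens and few probes can lie outside it. Of 13151 probes 8056 passed for the mean, 5351 without moderation and from 6233 to 7971 without 1 harvest. For the slope 0 passed (1870 at an unadjusted p under 0.05), 1 with arrays centred, 28 with equal spread, and from 0 to 584 without 1 harvest. Of the listed genes 91 passed for the mean, 57 without moderation (54 shared) and from 69 to 92 without 1 harvest. For 45 list genes whose values the report gives, those picked later included, 443 of 495 repeats left the call as it was, 51 lost it and 1 gained it. Of the losses 15 came without moderation, 6 with arrays centred, and 7 each without 30 min and without 8 h. Without moderation the calls lost were those of BTRC, CD52, CD79B, CDH1, CLDN1, CLDN7, KRT7 and KRT18. LOXL2, OVOL1, RCOR1, SMAD4, TCF4, TWIST1 and VDR lost theirs too. Of the 12 nearest genes 5 were kept with equal spread, 7, 6, 8 and 10 without 0, 10 and 30 min and 1 h, and 0 without 8 h. Apart from that widened self-self range, the cause of these shifts was not tested.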
